A study of Mus musculus with 2 samples.

Results

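The cells described here are Ccr2 and Chil3 monocytes of mouse pancreatic tumours, 402 cells of the 24160 kept in 2 single-cell RNA libraries. A kept barcode had at least 500 genes detected, 1000 to 60000 UMIs (unique molecular identifiers, 1 per captured RNA molecule) and at most 15% of its UMIs on mitochondrial genes. The cells were chosen by measured UMIs of 12 genes. A monocyte was a kept cell with at least 1 UMI of Csf1r, the receptor for macrophage colony-stimulating factor, and at least 3 UMIs of Ccr2 and Chil3 together. Its C1qa, C1qb and C1qc UMIs had to make up less than 0.1% of the total and its S100a8 and S100a9 UMIs less than 0.4%, with no UMI of Flt3, Cd209a, Cd3e or Cd79a. C1q-positive macrophages, the comparison class, met the same limits but had a C1q share of at least 0.1% and no limit on Ccr2 and Chil3. The library labelled KPC-shV gave 245 monocytes and 1109 macrophages, and the library labelled KPC-shZEB1 gave 157 and 1853.

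The study grafted KPC cells, a pancreatic cancer line from genetically engineered mice that carry Pdx1-Cre, into the pancreas of mice. The KPC cells had been transduced with a lentiviral control vector (KPC-shV) or with a short hairpin RNA against Zeb1 (KPC-shZEB1), so any knockdown lies in the grafted cells and not in the host cells that give rise to monocytes. Each group is 1 tumour and 1 library, sampled with 10x Genomics droplets after enzymatic digestion and red cell lysis. By the study's account the mice of both groups had received gemcitabine, a cytotoxic nucleoside analogue, while the sample labels name the injected cells only and give neither drug, strain nor age. With 1 library per group no test of the groups was possible, the tumour, the mouse, the handling and the graft cannot be told apart, and every difference is given as a value with a 95% interval that covers counting error only. Paired values stand in the order KPC-shV, KPC-shZEB1, and ratios are KPC-shZEB1 over KPC-shV unless stated otherwise.

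Monocytes are made in the bone marrow, circulate in blood and enter inflamed tissue and tumours, where many become macrophages or dendritic-like cells. Classical mouse monocytes carry high Ly6C on their surface and leave the marrow through the chemokine receptor Ccr2, which binds Ccl2. Nonclassical monocytes carry little Ly6C, patrol vessel walls, need the nuclear receptor Nr4a1 and express genes such as Cx3cr1, Spn, Ace, Treml4 and Ear2. As monocytes mature into tissue macrophages they lose Ly6C and Chil3 and gain complement C1q, Apoe and Mrc1.

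Zeb1, the gene the hairpin targets, was not lower in keratin- and Epcam-positive cells (at least 5 UMIs of Epcam, Krt8, Krt18 and Krt19 together and none of Ptprc). It was 198 and 211 CPM there (UMIs summed over a class of cells, per 1000000 UMIs of that class), a ratio of 1.06 (0.994 to 1.13). This class leaves out grafted cells with fewer of those UMIs. It is not made up of grafted cells only, with fibroblast markers at 5735 and 6348 CPM and acinar markers at 1007 and 605 CPM. The study separately reports the knockdown efficiency in the KPC cells and Zeb1 staining of tumours. Knockdown in the graft was not settled here, so the libraries are named by their labels throughout. In monocytes, which were not transduced, Zeb1 was 62.8 and 139 CPM, a ratio of 2.21 (1.85 to 2.65). Zeb1 is abundant in T cells (1072 and 1293 CPM), and the summed CPM of 5 T cell markers in the monocytes was 14.1 and 63.6; the part of T cell RNA in the Zeb1 difference was not tested. Zeb2, which monocytes need for their identity, was 2559 and 1938 CPM.

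Monocytes were sampled more deeply than the average cell and less deeply than macrophages. Their median was 12144 and 10897 UMIs and 3476 and 3427 genes per cell, against medians of 3764 and 4381 UMIs over all kept cells and 14707 and 13717 UMIs in C1q-positive macrophages, and they held 3486064 and 2171282 UMIs in all. A doublet score above 0.2 was found in 8 (3.27%) and 7 (4.46%) of them. The libraries shared 40 barcodes among kept cells, none of them a monocyte in both.

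**Figure D1:**
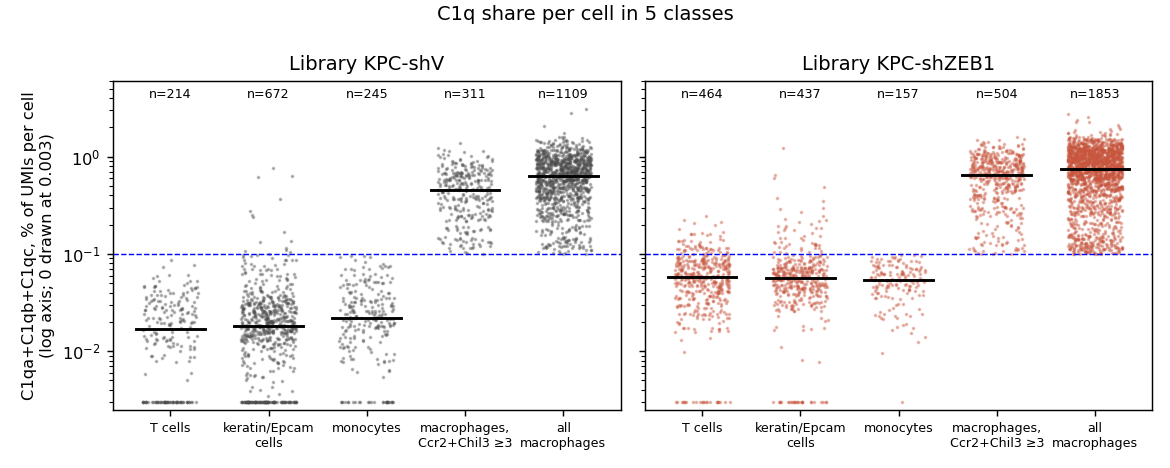
C1q share of each cell's UMIs (percent, log axis, cells at 0 drawn at the lower edge) by class and library, with the median as a line. T cells, which make no C1q, had medians of 0.0171% and 0.0573%, monocytes 0.0222% and 0.0535%, and C1q-positive macrophages 0.633% and 0.749%.

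The genes of the rule are described first, as the values that chose the cells. Ccr2, which was 415 and 343 CPM in monocytes and 161 and 117 CPM in macrophages, and Chil3, a chitinase-like protein of maturing marrow monocytes at 711 and 686 CPM against 58.2 and 70.7 CPM, had a median of 10 and 9 UMIs per cell together. Reads of Chil3 may be shared with its near-identical neighbour Chil4. Csf1r was 230.1 and 240.4 CPM and lower than in macrophages (361 and 398 CPM). Among kept cells with at least 3 UMIs of Ccr2 and Chil3 that met every other criterion, the C1q ceiling alone set aside 311 of 556 (55.9%) in KPC-shV and 504 of 661 (76.2%) in KPC-shZEB1.

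C1q UMIs in cells that make none differed between the libraries, as the plot of C1q share by class shows. T cells (at least 2 UMIs of Cd3e) and B cells (at least 3 of Cd79a) were taken without any UMI of Csf1r. None of 214 T cells of KPC-shV reached the ceiling of 0.1%, against 59 of 464 (12.7%) in KPC-shZEB1. The B cell shares were 0.922% and 22.2%. In both libraries the median C1q share of monocytes lay near that of T cells, and in KPC-shZEB1 more cells of types that make no C1q lay above the ceiling. At least 1 UMI of Csf1r was seen in 24.9% and 32.7% of keratin- and Epcam-positive cells, and 3 or more UMIs of Ccr2 and Chil3 in 8.88% and 4.09% of T cells.

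At the edge of the Ccr2 and Chil3 minimum, cells with 3 UMIs (32 and 15 cells) had Lyz2, lysozyme, at 2246 and 2494 CPM and Csf1r at 139.5 and 134 CPM. Cells with 4 UMIs (17 and 23) had Lyz2 at 2925 and 3512 CPM. Just outside, cells with 2 UMIs (29 and 49) had Lyz2 at 1613 and 822 CPM and Csf1r at 78.6 and 78.8 CPM. Lyz2 was lower on each of these steps down, and it was 316 and 525 CPM in the 568 and 684 cells that met every other criterion with no UMI of either gene. Over all monocytes Lyz2 was 5473 and 6370.0 CPM.

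Some members carried RNA of other cell types. Fibroblast markers (Col1a1, Col1a2, Col3a1, Dcn, Pdgfrb) summed to 2683 and 1397 CPM in monocytes, against 473 and 699 CPM in macrophages and 441 and 746 CPM in T cells. The 5 cells richest in it held 85.8 and 64.7% of the monocytes' Col1a1 UMIs. Keratin and Epcam markers summed to 773 and 981 CPM. A myeloid check was therefore added after seeing the data, which asked for at least 0.4% of UMIs on Lyz2, Tyrobp, Fcer1g and Cd14 together. It also asked for at most 0.3% on Epcam, Krt8, Krt18, Krt19, Col1a1, Col1a2, Col3a1 and Dcn together. It kept 221 and 138 monocytes and 1061 and 1708 macrophages, and results are given with and without it where it matters. T, NK and B marker sums stayed at or under 63.6 CPM. The 6 type 2 dendritic cell markers summed to 146 and 181 CPM, against 187 and 262 CPM in macrophages. Of these markers Flt3 and Cd209a were at 0, as the rule requires, and the highest was 102 and 124 CPM. The 8 neutrophil markers, of which the rule caps S100a8 and S100a9, summed to 958 and 603 CPM. In macrophages they summed to 928 and 526 CPM and in T cells to 1605 and 1458 CPM.

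Monocytes were 2.09% (1.84 to 2.37%) of kept cells in KPC-shV and 1.26% (1.07 to 1.47%) in KPC-shZEB1 (exact binomial intervals), a ratio of 0.603 (0.490 to 0.740). Neutrophils, the S100a8- and S100a9-high cells, took different shares of the libraries. Among the 6205 and 9670 cells under the S100a8 and S100a9 ceiling the monocyte shares were 3.95% and 1.62%, a ratio of 0.411 (0.334 to 0.504), and among Csf1r-positive cells 7.58% and 3.20%, a ratio of 0.423 (0.344 to 0.519). For every 100 C1q-positive macrophages there were 22.1 (19.2 to 25.4) monocytes in KPC-shV and 8.47 (7.15 to 9.98) in KPC-shZEB1. All 4 measures were lower in KPC-shZEB1 beyond counting error, and they share the same monocyte counts. The limits on Cd3e and Cd79a set aside more cells of KPC-shZEB1. Among cells meeting every other criterion, the Cd3e limit alone set aside 2 of 247 (0.81%) and 19 of 176 (10.8%). The Cd79a limit alone set aside 6 of 251 (2.39%) and 26 of 183 (14.2%). The part of these 2 limits in the difference was not tested. With the C1q ceiling raised to 0.3%, above the level most T cells reach, the shares were 2.93% and 2.00% and the ratio 0.683 (0.578 to 0.807). The part of the higher C1q background in this difference was not tested beyond that value.

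The 5 marker genes given for these cells were not of equal weight. S100a4, a calcium-binding protein of motile cells (chr3:90603771-90606045 in GENCODE vM21, plus strand), was 966 and 847 CPM in monocytes, 4.15 and 5.00-fold the macrophage level. Ear2 (chr14:44102654-44103534, plus strand), an eosinophil-type ribonuclease of nonclassical monocytes with near-identical family members, was 43.6 and 50.2 CPM and lower than in macrophages (104 and 83.3 CPM). Ear2 was detected in 23.7 and 23.6% of monocytes, against 1.87% and 6.03% of T cells (medians of 6499 and 5729.5 UMIs per T cell). Among the macrophages Ear2 was 175 and 141 CPM in cells with at least 3 UMIs of Ccr2 and Chil3 and 66.3 and 55.0 CPM in those with fewer. So S100a4 was higher and Ear2 lower in monocytes than in macrophages, while among macrophages Ear2 was higher in the cells with Ccr2 and Chil3.

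Classical monocyte genes set these cells apart from the macrophages. Ly6c2 (chr15:75108158-75111970, minus strand), which encodes the Ly6C surface protein and shares reads with Ly6c1, was 119.6 and 184 CPM against 11.4 and 19.3 CPM, a ratio of monocytes over macrophages of 10.5 and 9.56. It was detected in 40.4 and 51.6% of monocytes, and in 2.30% and 3.40% of B cells, which do not make it (B cell medians of 4066 and 3579 UMIs). With each cell thinned to 1000 UMIs the monocyte shares were 9.80 and 19.7%. T cells also held Ly6c2 (157 and 144 CPM). Vcan (chr13:89655312-89742509, minus strand), the matrix proteoglycan versican, was 508 and 414 CPM and 9.20 and 8.57-fold the macrophage level. Plac8 (chr5:100553725-100572245, minus strand), a small protein of immature myeloid cells, was 1632 and 1747 CPM and 9.68 and 6.38-fold, with 632 and 667 CPM in T cells. The ratio of Ly6c2, Vcan and Plac8 was above 6 in both libraries.

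Further genes followed them. Hp, haptoglobin, was 184 and 263 CPM and 5.03 and 5.20-fold the macrophage level, and the membrane protein gene Ms4a4c 94.9 and 158 CPM and 3.29 and 4.08-fold. Fn1, fibronectin, was 2339 and 1378 CPM and 2.18 and 1.47-fold, and Itgam, the CD11b chain of complement receptor 3, 361 and 255 CPM and 2.17 and 1.52-fold. Not every classical gene did so: F13a1, coagulation factor XIII, was 173 and 172 CPM and lower than in macrophages (421 and 413 CPM). Of 19 classical monocyte genes compared, 5 were at least 2-fold higher in monocytes in both libraries and 1 lower, where 1.82% of all 3457 genes were higher and 3.21% lower.

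**Figure D2:**
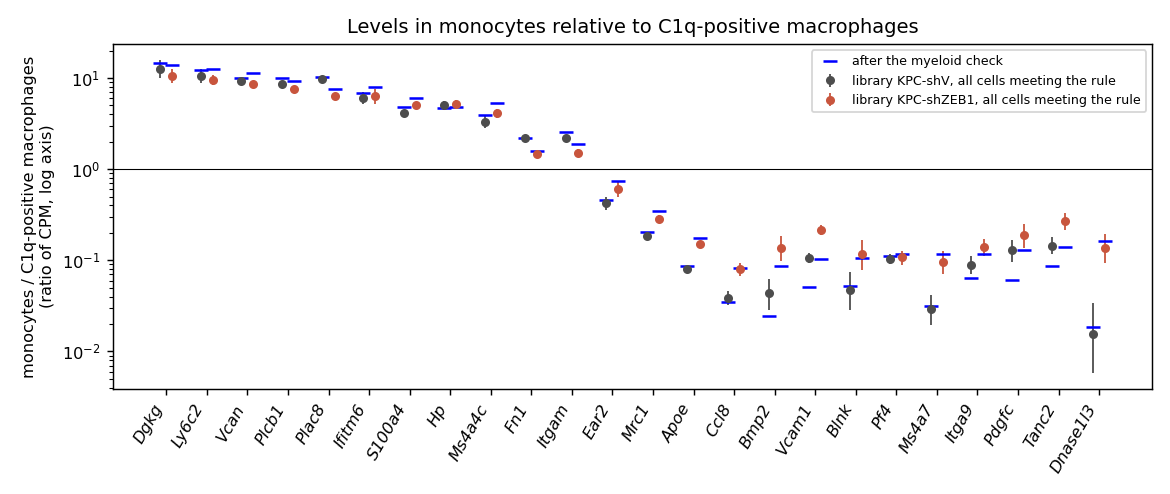
Level in monocytes over level in C1q-positive macrophages (ratio of CPM, log axis) for 24 genes in each library, with 95% counting intervals; blue dashes mark the ratio among cells passing the myeloid check. Ly6c2, Vcan, Plac8 and Plcb1 sit above 6 and Ccl8, Ms4a7, Pf4 and Apoe below 0.2 in both libraries.

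At a 4-fold limit in both libraries, 6 genes (0.174% of those compared) were higher and 19 (0.55%) lower in monocytes, leaving out the genes of the rule. Plcb1, phospholipase C beta 1, was among the leading higher genes at 916 and 787 CPM and 8.53 and 7.67-fold, with 11.7 and 11.4 CPM in T cells. Among cells passing the myeloid check the diacylglycerol kinase gene Dgkg led the order at 14.7 and 14.0-fold, with Ly6c2 at 12.4 and 12.5-fold. Ifitm6, an interferon-induced transmembrane protein gene, was 6.93 and 7.93-fold there and S100a4 4.77 and 6.11-fold. Timp1, Dcn and Serpinh1 also stood among the 10 leading higher genes, but 5 cells held 65.7 and 91.3% of the Timp1 UMIs and 73.4 and 82.1% of the Dcn UMIs. None of these 3 was among the 10 leading genes after the check, which caps Dcn itself.

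Tissue macrophage genes were low in monocytes. Of 21 compared, 16 were at least 2-fold lower in both libraries and none higher. Apoe, apolipoprotein E, was 801 and 2209 CPM against 9979 and 14550.5 CPM, Mrc1, the mannose receptor, 186 and 268 against 1002 and 937 CPM, and Ms4a7 8.03 and 23.5 against 276 and 245 CPM. The chemokine gene Pf4 was 0.103 and 0.108-fold the macrophage level, Ccl8 0.0388 and 0.0797-fold, the adhesion molecule gene Vcam1 0.106 and 0.214-fold and the integrin gene Itga9 0.0892 and 0.138-fold. T cells, which do not make Apoe, held 315 and 1096 CPM of it. Folr2 and Lyve1, genes of long-lived resident macrophages, were rare in monocytes and higher in macrophages. Folr2, a folate receptor, was 3.73 and 3.22 CPM in monocytes and 69.6 and 52.9 CPM in macrophages, and Lyve1, a hyaluronan receptor, 1.15 and 0 CPM in monocytes and 59.7 and 47.4 CPM in macrophages.

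Most nonclassical monocyte genes were scarce. Nr4a1, which nonclassical monocytes need and which stress also induces, was 354 and 273 CPM and close to macrophages at 1.21 and 1.07-fold. Spn, the CD43 gene, was 6.31 and 8.75 CPM, Ace, angiotensin-converting enzyme, 16.1 and 20.3 CPM, Treml4 18.1 and 27.6 CPM and Adgre4 13.2 and 13.4 CPM. Cd300e had 3 and 0 UMIs over all monocytes. Cx3cr1, the fractalkine receptor, was 29.0 and 27.6 CPM and lower than in macrophages (111 and 88.2 CPM). In KPC-shV macrophages Ace was 4.27 CPM and Treml4 10.2 CPM, below the monocyte level. Fcgr4, a further gene of the list, was 89.8 CPM in monocytes of KPC-shV and 208 CPM in macrophages. Genes with a mean below 50 CPM over both classes were left out of the count. Of 7 nonclassical genes compared with macrophages none was 2-fold higher in monocytes in both libraries.

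The transcription factors were largely shared with macrophages. Spi1 (PU.1), the master regulator of myeloid cells, was 284 and 232 CPM and 1.03 and 0.914-fold, Cebpb 1223 and 927 CPM and 1.21 and 1.06-fold, Irf8 155 and 181 CPM and 0.639 and 0.771-fold, Klf4 229 and 233 CPM and 0.926 and 0.888-fold, and Runx1 1136 and 1260.1 CPM and 1.46 and 1.28-fold. Maf, which drives macrophage differentiation, was lower at 0.241 and 0.360-fold. Of 23 factors 2 were at least 2-fold lower in both libraries, and none was 2-fold higher.

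Receptors for chemokines, growth factors and microbes were mostly near the macrophage level. Ccr1, a receptor for Ccl3 and Ccl5, was 276 and 258 CPM and 0.987 and 1.07-fold the macrophage level. The integrin gene Itgb7 was 51.9 and 63.1 CPM and 4.90 and 3.26-fold, and Cd44, the hyaluronan receptor, 2289 and 1972 CPM and 1.82 and 1.43-fold. Csf2rb, the shared chain of the GM-CSF receptor, was 597 and 504 CPM, and Tgfbr1, a TGF-beta receptor chain, 99.8 and 121 CPM and 0.309 and 0.433-fold. Clec4e, a receptor for mycobacterial glycolipid, was 533 and 511 CPM and 2.06 and 1.94-fold, and Fcgr1, the high-affinity IgG receptor, 114 and 118 CPM and 0.802 and 0.772-fold. Itgb7 had a mean below 50 CPM over both classes and was left out of the counts. Of the 14 chemokine receptor and adhesion genes counted 1 was 2-fold lower and none higher, and of 22 Fc, complement and pattern receptors 2 were lower.

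Secreted factors were abundant. Il1b, interleukin 1 beta, was 6268 and 5729 CPM and 1.52 and 1.37-fold the macrophage level, and Cxcl2, a neutrophil attractant, 6171 and 4762 CPM and 1.03 and 0.857-fold. T cells held 1297 and 965 CPM of Il1b and 1997 and 1328 CPM of Cxcl2. Thbs1, thrombospondin 1, was 1692 and 1693 CPM and 1.91 and 1.73-fold. Of 29 chemokine and cytokine genes compared with macrophages none was 2-fold higher in both libraries and 5 were lower: Il10, Cxcl16, Ccl7, Ccl12 and Ccl8. Il10, an anti-inflammatory cytokine, was 16.4 and 22.6 CPM against 154 and 118 CPM, and Ccl7, a further Ccr2 ligand, 427 and 378 against 1991 and 1566 CPM.

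The remaining lists were compared with macrophages in the same way. In the list of S100 proteins, galectins and cytoskeleton, 4 of 18 genes were at least 2-fold higher in monocytes (S100a4, S100a6, S100a10 and Anxa2) and none lower. Among MHC class II presentation genes 3 of 11 were lower, among lipid handling genes 4 of 12 and among suppressive myeloid genes 5 of 19, with none higher in any of the 3 lists. Fabp5, a fatty acid carrier, was 0.335 and 0.442-fold the macrophage level, and Abca1, a cholesterol exporter, 0.286 and 0.294-fold. No gene of the MHC class I, interferon, hypoxia, oxidase, cell cycle or stress lists was 2-fold higher or lower in both libraries.

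**Figure D3:**
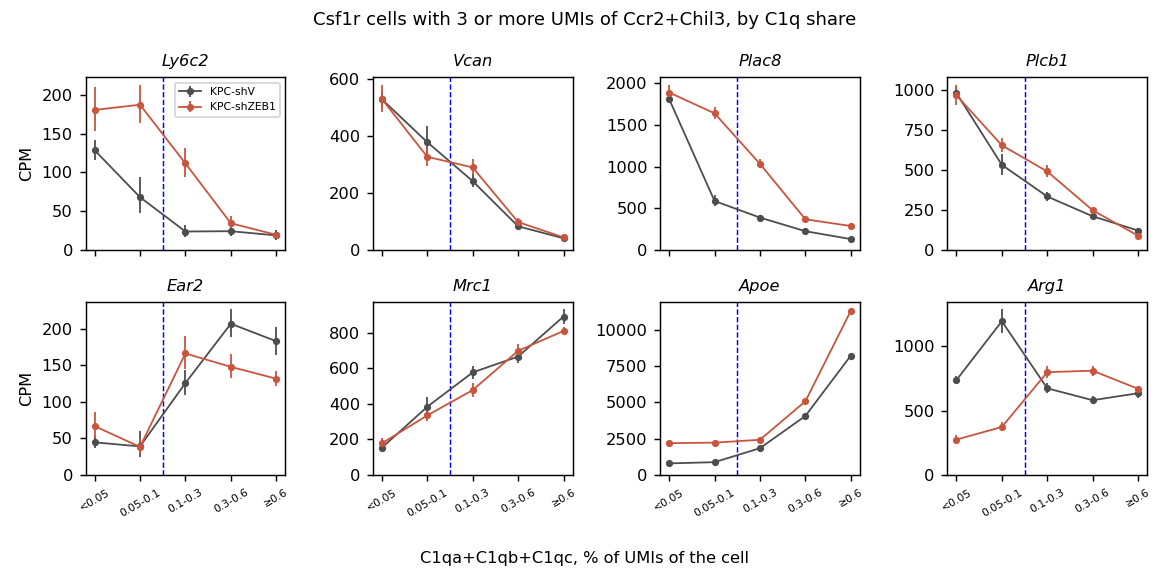
Level (CPM) of 8 genes in Csf1r-positive cells with at least 3 UMIs of Ccr2 and Chil3, by C1q share of UMIs, for each library; the 2 lowest bins are the monocytes and the 3 higher bins are macrophages with those UMIs. Ly6c2, Vcan, Plac8 and Plcb1 are lower, and Mrc1 and Apoe higher, at high C1q than at low C1q in both libraries.

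The C1q ceiling lies within a continuous range. Among Csf1r-positive cells with at least 3 UMIs of Ccr2 and Chil3, the 5 bins of C1q share (limits 0.05, 0.1, 0.3 and 0.6%) held 208, 37, 98, 115 and 98 cells in KPC-shV and 71, 86, 92, 123 and 289 in KPC-shZEB1. Vcan was 530.0, 379, 242, 83.6 and 41.4 CPM over the bins of KPC-shV and 531, 328, 290.4, 98.5 and 44.7 CPM over those of KPC-shZEB1. It was lower in each bin than in the one before.

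Ly6c2 was 129, 68.1, 23.9, 24.3 and 18.9 CPM in KPC-shV and 180.3, 187, 112, 34.5 and 19.6 CPM in KPC-shZEB1. In KPC-shZEB1 its level in the bin of 0.1 to 0.3%, outside the monocyte rule, was close to that of the lowest bin of KPC-shV. Plac8 was 390.2 and 1035 CPM and Plcb1 335 and 492 CPM in that bin, against 132 and 289 and 122 and 90.0 CPM in the highest. Mrc1 went the other way, from 152 and 177 CPM in the lowest bin to 891 and 809.6 CPM in the highest. Ear2 was 44.4, 38.9, 126, 207 and 183 CPM over the bins of KPC-shV and 66.7, 38.2, 166, 148 and 132 CPM over those of KPC-shZEB1. It was higher in each of the 3 bins above the ceiling than in the 2 below it. These values share cells, libraries and the cell-wise normalization, and are descriptions with no test.

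The monocytes entered the set by different routes. At least 3 UMIs of Ccr2 with fewer of Chil3 brought in 108 (44.1%) and 63 (40.1%) cells, at least 3 of Chil3 with fewer of Ccr2 50 (20.4%) and 34 (21.7%), and both 74 (30.2%) and 48 (30.6%). The shares of the routes differed little between the libraries, and their exact binomial intervals overlapped. In 13 and 12 cells only the sum reached 3. Those cells had medians of 32784 and 21043 UMIs, Lyz2 at 1205 and 1899 CPM and the keratin gene Krt8 at 1322 and 613 CPM, so a part of the set was neither Ccr2- nor Chil3-rich.

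Ccr2-route and Chil3-route cells differed in genes the rule did not use. H2-Ab1, an MHC class II chain, was 1350.3 and 2850.2 CPM in the Ccr2 route and 294 and 1096 CPM in the Chil3 route. Mgl2, a lectin of macrophages and dendritic cells, was 129 and 195 against 22.3 and 21.2 CPM. The reverse held for Ly6c2, at 54.3 and 133 against 195 and 234 CPM. Chil3-route cells were also higher in Plac8 (898 and 1049.7 against 3048 and 2710.4 CPM), Plcb1 (658 and 579 against 1564 and 993 CPM) and F13a1 (117 and 103 against 286 and 364 CPM). Each of these 6 genes differed the same way in both libraries.

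**Figure D4:**
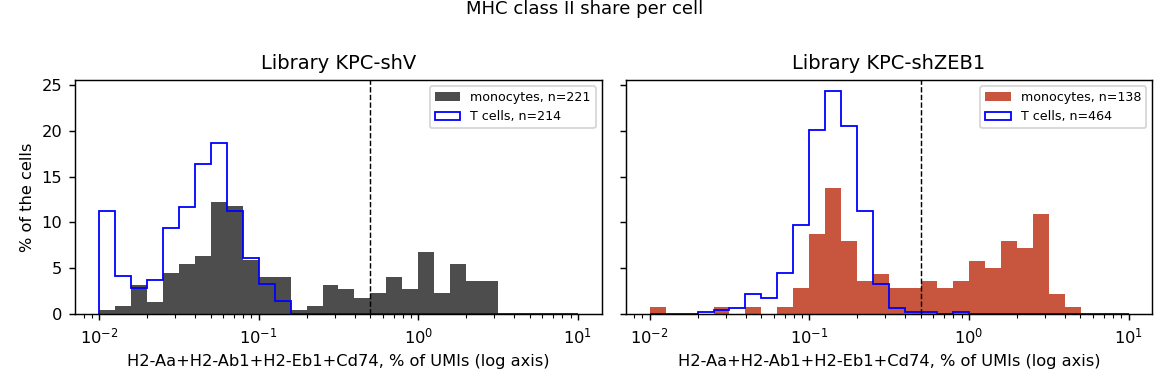
Percent of cells by MHC class II share of UMIs (H2-Aa, H2-Ab1, H2-Eb1 and Cd74, percent, log axis, lower shares drawn in the lowest bin) for monocytes passing the myeloid check (221 and 138, filled) and for T cells (outline), with a dashed line at 0.5%. Monocytes lie on both sides of the line, 30.8% above it in KPC-shV and 50% in KPC-shZEB1; the 95th percentile of T cells is 0.0941% and 0.243%.

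Monocytes also differed among themselves in MHC class II. Among those passing the myeloid check, 68 of 221 (30.8%, 24.8 to 37.3%) in KPC-shV and 69 of 138 (50%, 41.4 to 58.6%) in KPC-shZEB1 had at least 0.5% of UMIs on H2-Aa, H2-Ab1, H2-Eb1 and Cd74, a limit chosen after the values were seen, and 18 and 14 cells lay between 0.3% and 0.7%. The median was 0.0906% in KPC-shV over those cells and 0.494% in KPC-shZEB1. T cells reached 0.146% and 0.932% at most, with medians of 0.0444% and 0.140%, so MHC class II UMIs in cells that do not make them were also higher in KPC-shZEB1. The limit of 0.5% lies above the 95th percentile of T cells in both libraries, but below the highest T cell of KPC-shZEB1.

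MHC class II-high monocytes were lower in several classical genes. Ly6c2 was 39.7 CPM against 195 CPM in the cells under 0.5% of KPC-shV and 134 against 361 CPM in KPC-shZEB1. Plac8, Plcb1, Vcan, F13a1 and Hp were lower in the high cells in both libraries, with Vcan at 232 and 354 CPM against 717 and 706 CPM. Chil3 and Ccr2 chose the cells, so their levels are a description: Chil3 was 191 and 306 CPM in the high cells and 1192 and 1463 CPM in the others, and Ccr2 was 497 and 424 CPM in the high cells and 475 and 406 CPM in the others. Mgl2, Irf4 and Itgax, which monocyte-derived dendritic cells also express, were higher in the high cells. Mgl2 was 178 and 197 CPM against 19.5 and 15 CPM, Irf4 68.0 and 67.8 against 23.7 and 17.5 CPM, and the integrin gene Itgax (CD11c) 155 and 92.5 against 36.9 and 33.8 CPM. Ciita, the transactivator of MHC class II, was 61.7 and 43.1 against 10.6 and 5.00 CPM. The rule left out cells in which a UMI of Flt3 or Cd209a was caught, and dendritic cells in which none was caught can be among these cells.

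Ear2 was detected both with and without Ly6c2. The 2 genes were detected together in 7.35% and 12.7% of monocytes and Ear2 alone in 16.3% and 10.8%. Ly6c2 alone was detected in 33.1% and 38.9%, and neither in 43.3% and 37.6%. In KPC-shV 18 cells held both and 40 Ear2 alone, and in KPC-shZEB1 20 held both and 17 Ear2 alone. Whether they overlapped less often than their separate shares of cells would give was not tested. In KPC-shV the 40 cells with Ear2 alone had H2-Ab1 at 1781 CPM against 307 CPM in the 81 with Ly6c2 alone. In KPC-shZEB1 the 17 and 61 such cells had 1002 and 1193 CPM, so this contrast was seen in 1 library.

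Between the libraries, 178 of 3566 genes with a mean of at least 50 CPM (4.99%) were at least 1.5-fold higher in the monocytes of KPC-shZEB1 and 90 (2.52%) at least 1.5-fold lower. At 2-fold there were 42 (1.18%) and 20 (0.561%), and after the myeloid check 19 (0.566%) and 11 (0.328%). Among monocytes passing the myeloid check 104 of 3354 (3.1%) were 1.5-fold higher and 63 (1.88%) lower, and in C1q-positive macrophages 36 of 3349 (1.07%) and 14 (0.418%). The macrophage sums hold more UMIs and so less counting noise. The median log2 ratio over all genes was 0.03.

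**Figure D5:**
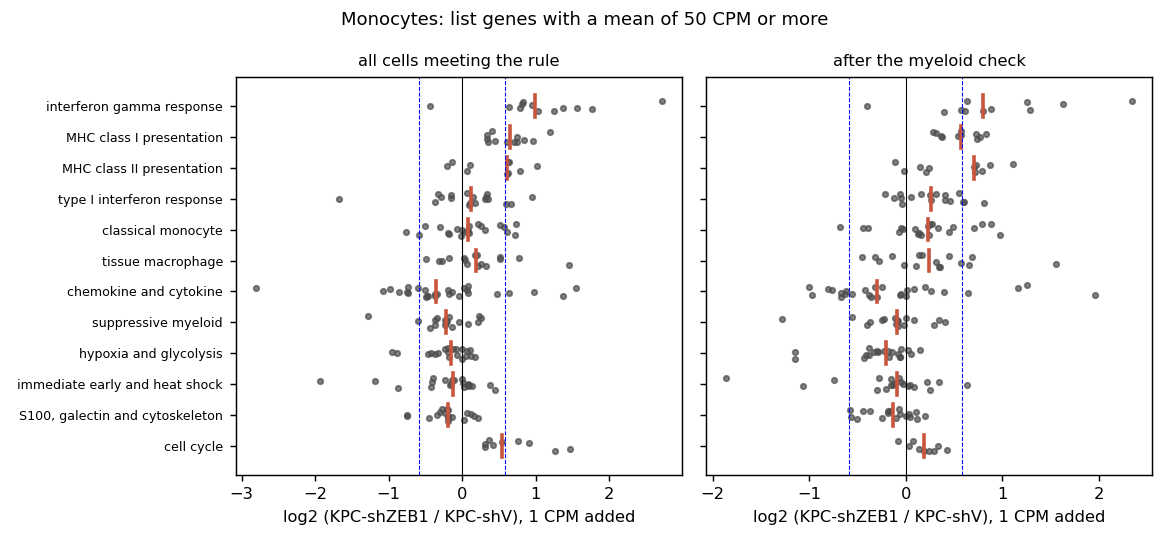
Log2 ratio of KPC-shZEB1 over KPC-shV for each gene of 12 lists in monocytes (points; left all monocytes, right those passing the myeloid check), with bars at the list medians and dashed lines at 1.5-fold. The interferon gamma response list has medians of 0.99 and 0.80 and the chemokine and cytokine list of -0.35 and -0.30, against 0.03 and 0.00 over all genes.

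Interferon gamma response genes were higher in KPC-shZEB1. Of 12 such genes compared 11 were at least 1.5-fold higher and none lower, with a median log2 ratio of 0.99, against 4.99% higher and a median of 0.03 over all genes. After the check it was 8 of 11 with a median of 0.80, and in macrophages the median was 0.56. Gbp2 (chr3:142620602-142638008, plus strand), a guanylate-binding protein that attacks vacuoles of intracellular microbes, was 141 and 483 CPM, a ratio of 3.42 (3.07 to 3.82), and 3.10 after the check. It was detected in 51.4 and 76.4% of monocytes, and in 15.9 and 21.7% after thinning to 1000 UMIs, where T cells gave 6.07% and 8.19%. Genes of this family have near-identical members, which the counting may split.

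Iigp1, an immunity-related GTPase, had the largest ratio of the list at 6.73 (5.57 to 8.17), from 39.0 and 263 CPM, though 5 cells held 42.6 and 67.0% of its UMIs. Cxcl9 (chr5:92321347-92328079, minus strand), a ligand of Cxcr3, the chemokine receptor of activated T cells, was 170.4 and 445 CPM, a ratio of 2.61 (2.36 to 2.90), with 5 cells holding 52.0 and 54.1%. The related Cxcl10 was 444 and 693 CPM, a ratio of 1.56 that was 1.32 after the check. Iigp1 and Cxcl9 were thus uneven over cells. Irf1, a transcription factor induced by interferon gamma, was 146 and 283 CPM with 25.5 and 31.4% of its UMIs in 5 cells, a ratio of 1.94 (1.72 to 2.18), and Gbp5 was 60.8 and 146 CPM, a ratio of 2.41 (2.02 to 2.88). The macrophage ratios were 1.76 for Gbp2, 1.54 for Cxcl9 and 1.86 for Irf1. Cd274 (PD-L1) was the gene of the list that was not higher, at 572 and 422 CPM and a ratio of 0.738.

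The promoters of these genes are shown because they were higher together. Interferon gamma acts on a promoter site called GAS, searched here as TTCNNNGAA, and interferon regulatory factors act on ISRE, searched as GAAA, any 2 bases and GAAA again, both on either strand. RefSeq promoters (GRCm38.p6, from 250 bases before to 50 after the start) could be read for 9 of the 11 genes. ISRE letters were found in 6 of the 9, GAS letters in 4 and both in 3, counting a gene if any of its promoters matched. Of all 32851 promoters 3.44% held ISRE, 8.30% GAS and 0.454% both. The genes were listed as interferon gamma responders beforehand, so this excess does not bear on the difference between libraries. List genes outside the 11 held the letters too: Irgm2, Tgtp1 and Tgtp2 both, Irgm1 and Socs1 ISRE, and Serpina3g GAS, while Cd274 held neither. Capitals mark the matches in Gbp2 (chr3:142620413-142620712, plus strand), Gbp5 (chr3:142496684-142496983, plus strand) and Igtp (chr11:58199306-58199605, plus strand), and the Cxcl9 promoter held neither.
Gbp2: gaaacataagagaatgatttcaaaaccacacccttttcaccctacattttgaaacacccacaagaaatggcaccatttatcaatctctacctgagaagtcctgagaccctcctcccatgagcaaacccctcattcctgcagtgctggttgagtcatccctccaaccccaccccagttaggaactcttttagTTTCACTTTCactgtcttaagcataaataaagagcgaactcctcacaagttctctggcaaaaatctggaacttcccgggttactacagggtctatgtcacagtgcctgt
Gbp5: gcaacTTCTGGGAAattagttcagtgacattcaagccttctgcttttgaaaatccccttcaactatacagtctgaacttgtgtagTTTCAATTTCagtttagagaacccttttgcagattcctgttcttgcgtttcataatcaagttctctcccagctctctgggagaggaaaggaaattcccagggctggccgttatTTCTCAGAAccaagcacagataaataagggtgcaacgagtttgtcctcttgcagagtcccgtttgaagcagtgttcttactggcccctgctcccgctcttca
Igtp: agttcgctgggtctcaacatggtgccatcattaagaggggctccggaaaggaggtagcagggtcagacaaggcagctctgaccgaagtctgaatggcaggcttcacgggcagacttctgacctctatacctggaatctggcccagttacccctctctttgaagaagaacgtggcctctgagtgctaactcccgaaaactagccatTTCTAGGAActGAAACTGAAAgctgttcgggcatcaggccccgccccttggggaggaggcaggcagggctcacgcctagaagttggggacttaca
The Gbp2 promoter held 1 ISRE match and no GAS match, that of Gbp5 2 GAS and 1 ISRE, and that of Igtp 1 of each. Igtp itself, a further GTPase of this family, was 29.3 and 88.9 CPM, a ratio of 3.04 (2.38 to 3.90). A match is a run of letters and not a measured site of binding.

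Antigen presentation genes were higher too. Of 10 MHC class II presentation genes 6 were at least 1.5-fold higher in KPC-shZEB1 and none lower, with a median log2 ratio of 0.62, and 0.71 after the check. H2-Ab1 was 811 and 1652 CPM, a ratio of 2.04 (1.94 to 2.14), and was detected in 74.3 and 94.3% of monocytes, or 34.7 and 52.2% when each cell was thinned to 1000 UMIs. T cells, which in mice do not make it, gave 7.01% and 25.2% after the same thinning and held 74.6 and 289 CPM, so the level in cells that do not make it differed the same way and its part was not tested. Cd74, the invariant chain, was 2328 and 4008 CPM, a ratio of 1.72, and H2-Aa 999 and 1541 CPM, a ratio of 1.54. The costimulatory gene Cd86 was 809.8 and 870.5 CPM, a ratio of 1.07.

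Among MHC class I genes 7 of 12 were at least 1.5-fold higher and none lower, with a median of 0.66, and 4 of 11 after the check. Psmb8, a subunit of the immunoproteasome that cuts peptides for class I, was 188 and 368 CPM, a ratio of 1.96 (1.76 to 2.17), and 1.79 after the check. Psmb10 had a ratio of 1.81 and the peptide transporter gene Tap1 1.63, while H2-K1 and B2m, the chains of the complex itself, had 1.37 and 1.33. The 4 genes called after the check were Nlrc5, Psmb10, Psmb8 and H2-Q7, and Tap1 was not among them. In macrophages Psmb8 had a ratio of 1.44 and B2m of 1.02. In the type I interferon list 3 of 18 genes (Zbp1, Ly6e and Ly6a) were higher and 1, Slfn4, lower with a median of 0.13, and after the check 3 of 17 (Zbp1, Ly6a and Isg15) were higher and none lower with a median of 0.26. Isg15, a ubiquitin-like protein, was 101 and 128 CPM, a ratio of 1.26, and Rsad2, viperin, 66.6 and 51.6 CPM, a ratio of 0.775.

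Arg1 (chr10:24915221-24927484, minus strand), the arginase with which suppressive myeloid cells deplete arginine, was lower in KPC-shZEB1. It was 805 and 331 CPM, a ratio of 0.411 (0.378 to 0.446), and 0.410 after the check. In macrophages it was 585 and 698 CPM, a ratio of 1.19, so monocytes were 1.38-fold the macrophages in KPC-shV and 0.474-fold in KPC-shZEB1. Arg1 was detected in 53.9 and 55.4% of monocytes, and after thinning in 26.5 and 15.9%, against 2.80% and 4.74% of T cells. The unthinned shares were alike, whereas 74 (30.2%, 24.5 to 36.4%) and 27 (17.2%, 11.6 to 24.0%) had 5 UMIs or more.

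Cells with 5 or more UMIs of Arg1 differed from the rest. Fn1 was 3503 and 2383 CPM in them and 1781 and 1015 CPM in the others, Spp1, osteopontin, 3641 and 3759 against 1529.7 and 1719 CPM, and Vegfa, the vascular growth factor, 361 and 172 against 148 and 133 CPM. Plac8 was 811 and 494 against 2026 and 2199 CPM and Ly6c2 84.2 and 34.8 against 137 and 238 CPM. So Arg1-rich monocytes were higher in Fn1 and Spp1 and lower in Plac8 and Ly6c2 in both libraries. After the myeloid check, with 70 and 24 Arg1-rich cells, Fn1 was 3659 and 2480 CPM against 1606 and 1088 CPM and Plac8 857 and 459 against 2084 and 2505 CPM. Spp1 fell in KPC-shZEB1 from 3759 to 2453 CPM in the Arg1-rich cells and from 1719 to 526 CPM in the others, and in KPC-shV it was 3790 against 722 CPM. The median UMIs of all Arg1-rich monocytes were higher as well, 14567.5 and 18955 against 11731 and 10265, and the part of that depth was not tested. Cxcl9 was 115 CPM in Arg1-rich cells of KPC-shZEB1 and 565 CPM in the others, while in KPC-shV the order was the reverse, 229 and 143 CPM. In the list of suppressive genes 2 of 17, Arg1 and Vegfa, were at least 1.5-fold lower and none higher, with a median of -0.22. After the check 1 of 17, Arg1, was lower, with a median of -0.09 and Vegfa at a ratio of 0.676. Ptgs2, the cyclooxygenase of prostaglandin synthesis, had a ratio of 0.772.

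Inflammatory cytokines and chemokines went both ways. Of 28 genes 4 were at least 1.5-fold higher (Cxcl9, Cxcl10, Ccl24 and Ccl8) and 8 lower (Il1a, Il6, Cxcl3, Osm, Ccl2, Ccl5, Cxcl14 and Vegfa), with a median of -0.35. After the check 4 of 27 were higher (Cxcl9, Ccl24, Ccl8 and Cxcl16) and 8 lower (Il1a, Il6, Cxcl3, Osm, Ccl2, Ccl5, Spp1 and Hbegf), so 3 of the higher and 6 of the lower genes were called both times. Ccl2, the ligand of Ccr2, was 822 and 452 CPM, a ratio of 0.549 (0.510 to 0.591), and 0.793 in macrophages. Il6 was 163 and 82.0 CPM, a ratio of 0.503 (0.423 to 0.596), Cxcl3 297 and 140.5 CPM, a ratio of 0.473 (0.415 to 0.538), and Osm, oncostatin M, 554 and 331 CPM, a ratio of 0.597 (0.547 to 0.651). Vegfa was 217 and 144 CPM, a ratio of 0.661 (0.577 to 0.755). Il1b, the most abundant of them, differed little at a ratio of 0.914 (0.894 to 0.934), and Tnf had 0.713. Lif, a cytokine of the same family as Osm and outside the list, was 158 and 56.6 CPM, a ratio of 0.359 (0.293 to 0.437), and 0.374 after the check.

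Some of these differences lay in few cells. Ccl24, an eosinophil attractant, was 98.7 and 290.2 CPM with 51.7 and 77.8% of its UMIs in 5 cells. Ccl5 was 201 and 120.2 CPM, yet detected in more cells of KPC-shZEB1 (30.6 and 54.1%), and 5 cells held 81.5 and 46.4%. The summed UMIs and the share of cells pointed opposite ways for Ccl5, which T cells held at 1142 and 1257 CPM. Cxcl14 was 89.5 and 12.0 CPM, and 5 cells held 84.0 and 42.3%.

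Hypoxia, stress and cytoskeleton lists held a few lower genes. Ero1l and Egln3, both induced by low oxygen, had ratios of 0.516 (0.447 to 0.594) and 0.533 (0.413 to 0.683), from 234 and 121 CPM for Ero1l, and they were the 2 of 20 hypoxia and glycolysis genes past 1.5-fold, with a median of -0.15. Glycolytic enzymes such as Gapdh (1.09) and Hk2 (0.918) stayed near 1. Of the 20 genes in the immediate early and heat shock list 3 were lower: Hspa1b (0.261), Hspa1a (0.438), which shares reads with it, and Hsph1 (0.546). The list median was -0.12, and after the check these 3 were lower and Fos was higher. T cells also held less Hspa1b in KPC-shZEB1 (177 and 79.8 CPM). In the S100, galectin and cytoskeleton list S100a6 (0.595) and Crip1 (0.595) were lower of 18 with a median of -0.19, none after the check, and T cells held 1421 and 847 CPM of S100a6.

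Classical monocyte genes went both ways. Of 21 classical monocyte genes 3 were higher (Ly6c2, Ms4a4c and Gpr141) and 2 lower (Fn1 and F10), with a median of 0.08, and after the check 4 were higher, Ms4a6b being added, and 1, Fn1, lower, with a median of 0.23. Ly6c2 had a ratio of 1.54 (1.34 to 1.77), and 1.73 after the check, and Fn1 0.589 (0.565 to 0.614). The ratios of Vcan (0.815), Plac8 (1.07), Lyz2 (1.16) and Cd14 (0.884), a receptor for bacterial lipopolysaccharide, were nearer 1. Among 23 transcription factors Irf1, Zeb1 and Tcf4 were higher and Bhlhe40 (0.649) lower, with a median of -0.05, and after the check Nr4a2, Irf1 and Zeb1 were higher and Bhlhe40 lower. Of 6 nonclassical genes compared 1, Fabp4, was higher, with 22.2 and 95.4% of its UMIs in 5 cells, and none was higher after the check.

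Most receptor lists held no gene past 1.5-fold. That was so for 15 growth factor receptors (median 0.10), 22 Fc, complement and pattern receptors (median -0.06) and 10 phagocyte oxidase and granule genes (median -0.03). Of 15 chemokine receptor and adhesion genes Icam1, a ligand of leukocyte integrins, was higher at 1.56, with a median of -0.13, and after the check none was, with Icam1 at 1.49. Of 12 lipid handling genes 1, Fabp4, was higher, with a median of -0.03, and Fabp5 in its place after the check. Of 16 tissue macrophage genes 2, Apoe and Cd63, were higher with a median of 0.19, and 3, Apoe, Mrc1 and Mmp12, after the check. Apoe was 801 and 2209 CPM, a ratio of 2.76, while T cells held 315 and 1096 CPM. Of 9 cell cycle genes 4 (Stmn1, Mki67, Pclaf and Top2a) were higher with a median of 0.55, and none after the check, where the median was 0.18. Mki67, a marker of dividing cells, was 57.7 and 140.5 CPM with 31.8 and 61.0% of its UMIs in 5 cells.

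Most of the genes with the largest ratios lay in few cells or were also present in cells that do not make them. Rarres2, Adamts9, Serpinb2 and Fabp4 led the higher genes, and 5 cells of KPC-shZEB1 held 94.7%, 91.0%, 97.8% and 95.4% of their UMIs. Sfrp1, Cxcl14, Hspa1b, Pdzrn3 and Fbn1 led the lower genes, and 5 cells of KPC-shV held 90.0% of Sfrp1 and 87.7% of Fbn1. Ctrb1, a digestive enzyme of acinar cells, was 21.5 and 111 CPM in monocytes and 20.1 and 311 CPM in T cells, and the T cell gene Skap1 was 17.5 and 82.9 CPM against 1261 and 1197 CPM in T cells. Dmbt1 also stood among the 8 leading higher genes, and Htra3, Slfn4 and Timp3 among the 8 leading lower ones.

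After the check, the 8 leading lower genes were Hspa1b, Lif, Arg1, Hdac9, Fam20c, Mid1, Ero1l and Egln3. Hdac9, a histone deacetylase, was 233 and 99.3 CPM there, a ratio of 0.426, and 0.622 in macrophages. The leading higher genes there were Ctrb1, Iigp1, Ccl24, Gbp2, AY036118, Apoe, mt-Nd2 and Slamf7. Slamf7, a receptor of activated myeloid cells, was 28.7 and 73.2 CPM, a ratio of 2.55. Ctrb1, Apoe, AY036118 (129.8 and 348 CPM) and mt-Nd2 (291 and 659.5 CPM) were also at least 2-fold higher in T cells of KPC-shZEB1, which was not so for Gbp2 (56.8 and 99.8 CPM) or Slamf7 (50.1 and 50.8 CPM).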

How the data were processed

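RNA of single cells from 2 orthotopic tumours, 1 labelled KPC-shV and 1 labelled KPC-shZEB1, was captured with 10x Genomics 3' v3.1 chemistry. Per the labels, the authors deposited UMI counts per gene and barcode made with Cell Ranger 7.0.1 on mm10, as filtered matrices of 12594 and 13271 barcodes. Whether intronic reads were counted is not given in the sources used here. The authors' own analysis applied the same limits on genes, UMIs and mitochondrial share and removed inferred doublets with DoubletFinder, while the deposited matrices still hold barcodes outside those limits. Gene names came from the files.

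Cells were chosen with the UMI limits stated in the report, in Python 3.11.15 with numpy 2.4.6, scipy 1.17.1 and pandas 2.3.3. Scrublet scores (scanpy 1.11.5) were computed per library, and no cell was removed for its score. UMIs were summed over the cells of a class and divided by their total to give CPM. Ratios between libraries or classes used these sums, log2 ratios had 1 CPM added, and genes with a mean below 50 CPM were left out of counts. Intervals are 95% exact (Poisson conditional on the sum, or Clopper-Pearson) and cover counting error only. With 1 library per group no p-value was computed. Genes of the selection rule were left out of counts and lists. The genes of the lists, the 8 leading genes in each direction between libraries, and the 10 leading in each direction against macrophages were named, along with Zeb1 and the rule genes. The selection rule, the members, markers and lists were chosen with earlier results of these data known. Thinning drew 1000 UMIs per cell with a fixed seed, and 1 count step of known fold changes was checked on simulated data. Mx1, Mx2, Ly6a2 and Clec7a were not analysed here, and some genes that the lists count are not reported here by name. Promoters came from RefSeq (GRCm38.p6) and gene positions from GENCODE vM21.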

Additional observations from a re-analysis of the deposited data

Results flagged for a closer look

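Of the genes at least 1.5-fold apart between the libraries in monocytes, 2 went the other way by at least 1.5-fold in C1q-positive macrophages. Both conditions had to hold with and without the myeloid check, at a mean of at least 50 CPM in monocytes each time. With 1 library per group the difference between the classes was not tested for either gene.

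Ccl5, a chemokine made mainly by T and NK cells, had a log2 ratio of -0.74 in monocytes (201 and 120.2 CPM) and of 1.07 in macrophages (159 and 335 CPM). After the myeloid check the values were -0.97 and 1.09. In KPC-shV 5 cells held 81.5% of the monocytes' Ccl5 UMIs, and the mean over cells gave 0.20.

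Lrrk2, a kinase gene of myeloid cells known from Parkinson disease, had a log2 ratio of -0.94 in monocytes (70.6 and 36.4 CPM) and of 0.85 in macrophages (21.0 and 38.6 CPM). After the check the values were -0.89 and 0.88. Lrrk2 was therefore higher in monocytes than in macrophages in KPC-shV and near the macrophage level in KPC-shZEB1. It was outside the gene lists and is named because of its values.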

How the results depend on the processing

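No paired analysis was possible because each group is 1 library. The monocyte share ratio was between 0.571 and 0.707 under other limits on Ccr2 and Chil3, C1q and S100, without high doublet scores and after the myeloid check, which was chosen after seeing the data. It was 0.366 when the rule was applied to cells thinned to 1000 UMIs, which left 18 and 7 monocytes. Monocytes per macrophage, 0.384 as a ratio, stayed between 0.363 and 0.450 except for 0.184 after thinning. The limits on Flt3, Cd209a, Cd3e and Cd79a were not varied.

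Counts of genes moved more. For genes 2-fold higher in KPC-shZEB1 (42) they were 101 with a minimum of 2 UMIs, 470 after thinning, 19 after the myeloid check, 1342 with no CPM minimum and 8 at a mean of at least 200 CPM. For genes 2-fold lower (20) they were, in the same order, 11, 328, 11, 482 and 5, and also 9 with a C1q ceiling of 0.3% and 12 with the mean over cells. For genes 4-fold higher than in macrophages (6) they were 37 with a minimum of 2 UMIs, 10 with a minimum of 5, 25 after thinning, 10 with the mean over cells and 16 with no CPM minimum. For genes 4-fold lower (19) they were 58 after thinning, 54 with no CPM minimum and 8 at 200 CPM. The cause was not tested, beyond the fewer cells or other genes that thinning and the CPM minimum leave.

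The log2 ratio changed sign for Ccl5 (0.20 with the mean over cells), for Fbn1 (0.091) and Sfrp1 (0.060) after the myeloid check, and for Nlrc5 (-1.46) and Tapbp (-0.045) when the lower of the T and B cell levels was subtracted. Of 80 named genes past 1.5-fold, 57 were still past it after the check. The interferon gamma median stayed between 0.84 and 1.08 under the alternatives, and that of MHC class II between 0.47 and 0.71. The interferon gamma values are over the same 12 genes, apart from any that the T or B cell subtraction dropped. The cell cycle median, 0.55, was 0.18 after the check, 0.23 with the mean over cells and 1.05 with the T or B cell level subtracted. With that subtraction the medians of MHC class I went from 0.66 to 1.25 and of the transcription factors from -0.05 to -0.26. That of hypoxia and glycolysis went from -0.15 to 0.06. Genes left at 0 CPM or less in either library were dropped, which kept 273 of 303 named genes. The medians after subtraction can thus rest on fewer genes, and the part of that change was not tested.

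With 245 and 157 cells, a gene at 50 CPM rests on under 200 UMIs per library, and 1 tumour per group leaves the spread between tumours unknown.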
